A study of Musa acuminata AAA Group with 4 samples.

Results

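The genes described here are 4 regulators of the plant circadian clock: PRR95 (Ma09_g24730), LUX-like (Ma03_g22000), LHY-like (Ma10_g07650) and PRR1 (Ma02_g06530). They were chosen by gene ID from the 5520 genes that the authors' deposited tables list as different between low and normal potassium in leaf or root. Their difference is thus part of how they were chosen, and their values are a description with no test. All 4 were found. PRR95 and LUX-like are in the leaf table only, and LHY-like and PRR1 are in the root table only.

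RNA sequencing measured gene expression in 4 libraries of Cavendish banana seedlings (Musa acuminata AAA Group), a triploid dessert banana. The groups were leaves at low potassium (LKL), roots at low potassium (LKR), leaves at normal potassium (NKL) and roots at normal potassium (NKR), each with 1 library. Low-potassium seedlings had a culture solution low in potassium and the others complete Hoagland solution, a standard mix of plant nutrients, for 60 days. The sources used here give neither the number of plants behind a library nor the hour of harvest.

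The plant clock is a loop of transcription factors that repress one another in turn over the day and so time daily rhythms in growth, photosynthesis and starch use. In Arabidopsis, the MYB-like factors LHY and CCA1 peak near dawn, pseudo-response regulators (PRR proteins) follow in sequence through the day, and LUX binds DNA for the evening complex with ELF3 and ELF4. Each of these transcripts cycles, so with 1 harvest per group a change in level and a shift in phase cannot be told apart. A smaller share of the cells that express a gene and less RNA per cell likewise cannot be told apart in whole leaves or roots.

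The libraries held between 4203924 and 4555000 fragments assigned to genes, as computed from the deposited values. Of the 1183 genes in the authors' deposited leaf table, 67.4% were higher and 32.6% lower in LKL. Of the 4747 genes in the authors' deposited root table, 40.4% were higher and 59.6% lower in LKR. These are shares of listed genes, because genes outside the tables were not analysed here. Green tissue markers (chlorophyll a-b binding proteins, small chains of the carbon-fixing enzyme Rubisco, photosystem proteins and the oxygen-evolving enhancer) were higher for all 7 listed in leaf, with a summed level of 1037 FPKM in LKL against 375 FPKM in NKL, although 3 of the 7, among them the Rubisco small chain gene Ma06_g11230, turn to lower when counts are scaled by the median ratio of the listed genes. The 3 listed in root were also higher, at 81.2 FPKM in LKR against 16.7 FPKM in NKR, and no Rubisco small chain gene is in the root table. Among the 5 genes taken as root markers that are listed in root, 3 high-affinity nitrate transporter 2 genes were lower in LKR and 2 Casparian strip membrane protein genes, of the barrier around the root's inner tissues, were higher. Their summed level was 77.2 FPKM in LKR against 271 FPKM in NKR. Genes of the same list in leaf were 2 nitrate transporter genes, both lower, at 27.3 FPKM in LKL against 275 FPKM in NKL. Most of that sum was Ma01_g16930, at 23.4 FPKM in LKL and 256 FPKM in NKL, against 2.04 FPKM in LKR and 89.6 FPKM in NKR in the root table, which was normalised separately. Its levels go against its use as a root marker. None of these green tissue or root markers was at 0 in either library of a tissue that lists it. Their part in the clock gene ratios was not tested.

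In leaf, both clock regulators were lower at low potassium. PRR95, named after a rice PRR protein, measured 201 FPKM (fragments per kilobase of gene length, scaled to library size) in LKL and 512 FPKM in NKL. The estimated counts behind these levels were 1663 fragments in LKL and 4336 fragments in NKL. The FPKM ratio was 2.55-fold lower in LKL, with a 95% interval of 2.41 to 2.70 that covers counting error only, as do all intervals here. PRR95 was an abundant transcript, ranking 22 of 1183 leaf-table genes by mean FPKM and 7 of the 386 lower ones. KEGG matches PRR95 to another name among the pseudo-response regulators, pseudo-response regulator 5. In Arabidopsis, PRR5 and its relative PRR9 repress CCA1 and LHY during the day.

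LUX-like, named after the DNA-binding subunit of the Arabidopsis evening complex, had the largest ratio of the 4. It measured 8.32 FPKM from 36 fragments in LKL and 46.1 FPKM from 204 fragments in NKL. It was 5.54-fold lower (interval 3.87 to 8.13), which ranks 62 among the 386 lower leaf genes, whose median is 2.75-fold. The PRR95 ratio, at rank 224, lay below that median. The intervals of PRR95 and LUX-like did not overlap. With 36 fragments in LKL, LUX-like has the fewest counts behind its ratio and the widest interval of the 4. Its KEGG match does not name LUX. KEGG places Ma03_g22000, and the LUX-like copies Ma08_g17730 and Ma01_g16650, with the ARR-B family of two-component response regulators.

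In root, both clock regulators were higher at low potassium. LHY-like, whose Arabidopsis namesake represses evening genes at dawn, measured 124 FPKM from 1013 fragments in LKR and 53.6 FPKM from 478 fragments in NKR. It was 2.31-fold higher (interval 2.07 to 2.58). The ratio of counts scaled by depth was 2.24-fold, because in NKR the ratio of count to FPKM lay 3.22% above the depth line, which 2130 of 2199 genes follow within 1%. In LKR it lay on the line. The deposited length of LHY-like, 1933.74 bases, is not a whole number, which is the case for 202 of the 4747 root-table genes. That of PRR95, 2005.72 bases, is not whole either, as for 46 of the 1183 leaf-table genes. The NKL count of PRR95 before rounding was 4335.99.

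PRR1 takes its name from the pseudo-response regulator also called TOC1 in Arabidopsis, an evening repressor of CCA1 and LHY. It measured 57.5 FPKM in LKR and 27.4 FPKM in NKR, from estimated counts of 400.2 and 201.7 fragments. It was 2.10-fold higher (interval 1.76 to 2.49). Neither count is a whole number, so some fragments may have been divided between PRR1 and similar genes, and its ratio is uncertain to that extent. PRR1 has the smallest ratio of the 4, with a log2 of 1.07 beside the 1.0 that is the smallest in either table. Values just under that limit were not analysed here.

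**Figure D1:**
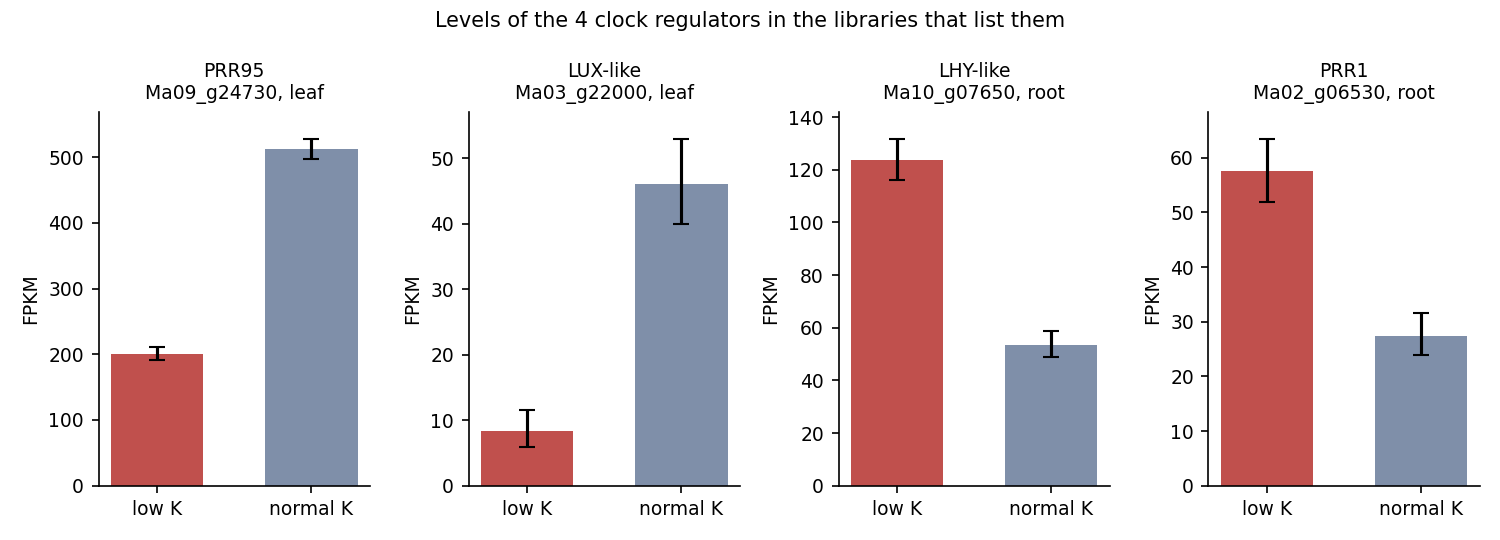
FPKM of PRR95, LUX-like, LHY-like and PRR1 in the low-potassium (red) and normal-potassium (blue-grey) library of the tissue that lists each gene, with exact 95% Poisson intervals for counting error; each panel has its own axis from 0. In leaf the low-potassium bars are the lower ones (201 and 8.32 FPKM against 512 and 46.1 FPKM), and in root they are the higher ones (124 and 57.5 FPKM against 53.6 and 27.4 FPKM).

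Both root ratios were modest for their table. LHY-like ranked 1553 and PRR1 ranked 1787 among the 1917 higher root genes, whose median is 3.22-fold. The intervals of LHY-like and PRR1 overlapped, and their ratios were not distinguishable at this depth. By mean FPKM, LHY-like ranked 688 and PRR1 ranked 1330 of 4747. In the authors' deposited tables the FDR of the 4 genes ran from 8.57e-253 for PRR95 to 1.26e-17 for PRR1. That FDR comes from a comparison of 2 libraries and not of replicated conditions.

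**Figure D2:**
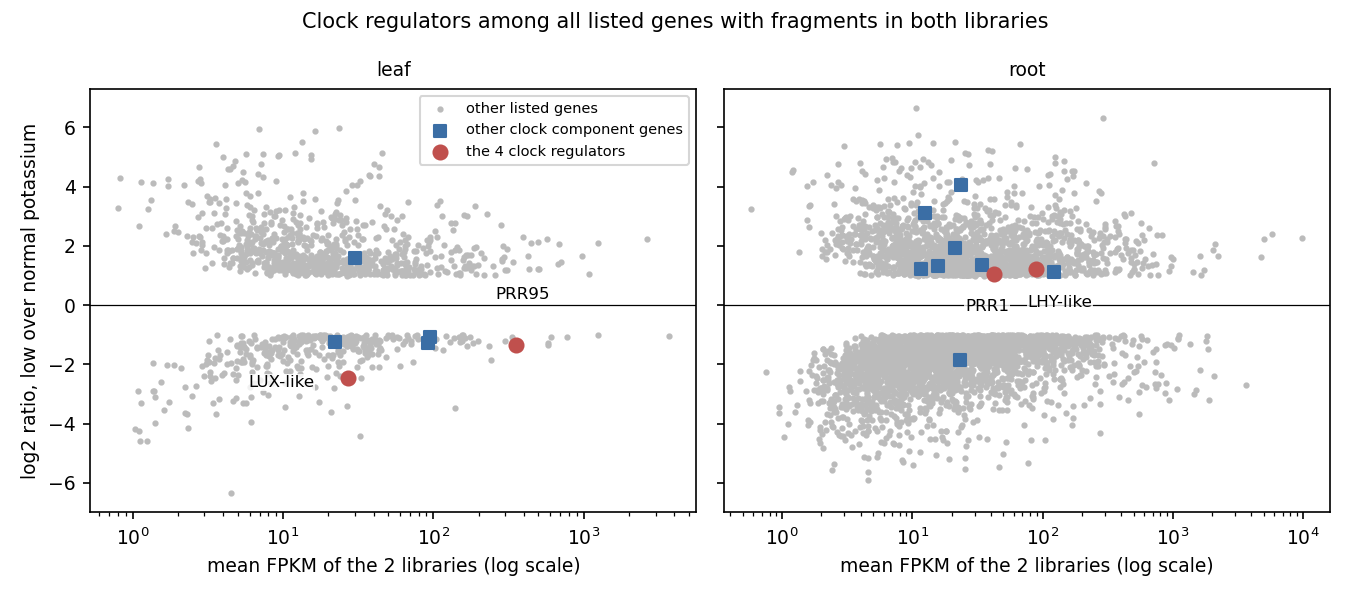
Log2 ratio of low over normal potassium against mean FPKM of the 2 libraries (log scale) for the listed leaf and root genes with fragments in both libraries, with the 4 clock regulators in red and the other clock component genes in blue. PRR95 lies at the abundant end of the leaf genes (rank 22 of 1183), while LHY-like and PRR1 lie near the lower limit of the ratios among the higher root genes.

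No level of these 4 genes can be set across tissues, because none is in both tables. Absence from a table does not show that a gene had equal levels there. Over both tables, 410 of the 5520 genes are listed in leaf and root, and 111 of the 410 have opposite directions. None of the 16 genes named as clock components is among those 410. With so small a share of all genes in both tables, this absence says little about clock genes.

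Besides the 4, the words for clock components found 12 more listed genes, giving 6 clock component genes in leaf and 10 in root. In leaf, 5 of 6 clock component genes were lower in LKL, beside 32.6% of all listed leaf genes. Their median log2 ratio was -1.26, against 1.32 over all listed leaf genes. In root, 9 of 10 clock component genes were higher in LKR, beside 40.4% of all listed root genes. Their median log2 ratio was 1.27, against -1.20 over all listed root genes. Listed log2 ratios are all at least 1.0 in size, so the sign of each median only restates the more frequent direction. The 4 regulators are part of both counts. Without them, 3 of 4 were lower in leaf and 7 of 8 were higher in root. The list of clock words was written with earlier results of these data known. The other 12 genes are thus no independent support, and both counts are a description only.

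The morning-type MYB factors split by tissue in the same way, through different gene copies. In leaf, REVEILLE 1-like Ma11_g01360 measured 61.2 FPKM in LKL and 129.6 FPKM in NKL, 2.12-fold lower (interval 1.86 to 2.41). The second leaf copy, Ma01_g02530, measured 13.2 FPKM in LKL and 31.3 FPKM in NKL, 2.38-fold lower (interval 1.82 to 3.13). REVEILLE 1 links the clock to auxin in Arabidopsis. The interval of Ma01_g02530 overlapped that of PRR95. That of Ma11_g01360 only touched it, ending at 2.410 where that of PRR95 starts at 2.408, so the overlap does not show equal ratios.

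In root, another REVEILLE 1-like copy, Ma02_g01300, measured 33.8 FPKM in LKR and 8.78 FPKM in NKR, 3.85-fold higher (interval 2.84 to 5.30), which lies above the interval of LHY-like. REVEILLE 6-like (Ma07_g04710) measured 49.0 FPKM in LKR and 19.1 FPKM in NKR, 2.57-fold higher. REVEILLE 8-like (Ma05_g10030), of a factor that activates evening genes in Arabidopsis, measured 16.2 FPKM in LKR and 6.99 FPKM in NKR, 2.32-fold higher. The intervals of these last 2 overlapped that of LHY-like. LHY-like was the most abundant of the 4 MYB-like clock factors in the root table.

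Among evening complex genes, the LUX-like copies also went opposite ways by tissue, again through different genes. No copy is listed in both tissues, so none shows a reversal. The other leaf copy, Ma08_g17730, measured 53.8 FPKM in LKL and 130.1 FPKM in NKL, 2.42-fold lower (interval 2.08 to 2.82). That interval does not overlap the one of Ma03_g22000, so the copies differed in ratio by more than counting error. In root, the LUX-like copy Ma01_g16650 measured 22.5 FPKM from 74 fragments in LKR and 2.59 FPKM from 9 fragments in NKR, 8.69-fold higher (interval 4.34 to 19.8).

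The ELF4-LIKE 3-like genes, relatives of the evening complex subunit ELF4, did not share a direction. Ma10_g03850 measured 44.9 FPKM in LKR and 2.69 FPKM in NKR, 16.7-fold higher (interval 6.86 to 52.8), from 79 and 5 fragments. Ma06_g13020 measured 167 FPKM in LKR and 76.7 FPKM in NKR, 2.18-fold higher. Ma08_g01220 measured 10.2 FPKM in LKR and 36.3 FPKM in NKR, 3.58-fold lower (interval 1.91 to 7.17), and was the single clock component gene lower in root. The counts of the last 2 are not all whole, so fragments may be shared between the copies.

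The remaining clock components were a light-input gene in leaf and a further PRR-type gene in root. Adagio-like protein 3 (Ma07_g10990), which KEGG matches to the blue-light receptor FKF1 of Arabidopsis, measured 45.4 FPKM in LKL and 14.9 FPKM in NKL. It was 3.05-fold higher (interval 2.47 to 3.80), the 1 clock component gene higher in leaf. FKF1 marks cyclic Dof factors for breakdown in Arabidopsis. In root, APRR2 (Ma02_g20040), a PRR-type protein outside the core clock, measured 22.3 FPKM in LKR and 8.93 FPKM in NKR, 2.50-fold higher (interval 1.85 to 3.41). PRR95 alone made up 52.5% of the summed FPKM of the leaf clock component genes in LKL and 59.3% in NKL, so any summed level of the leaf list follows it.

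**Figure D3:**
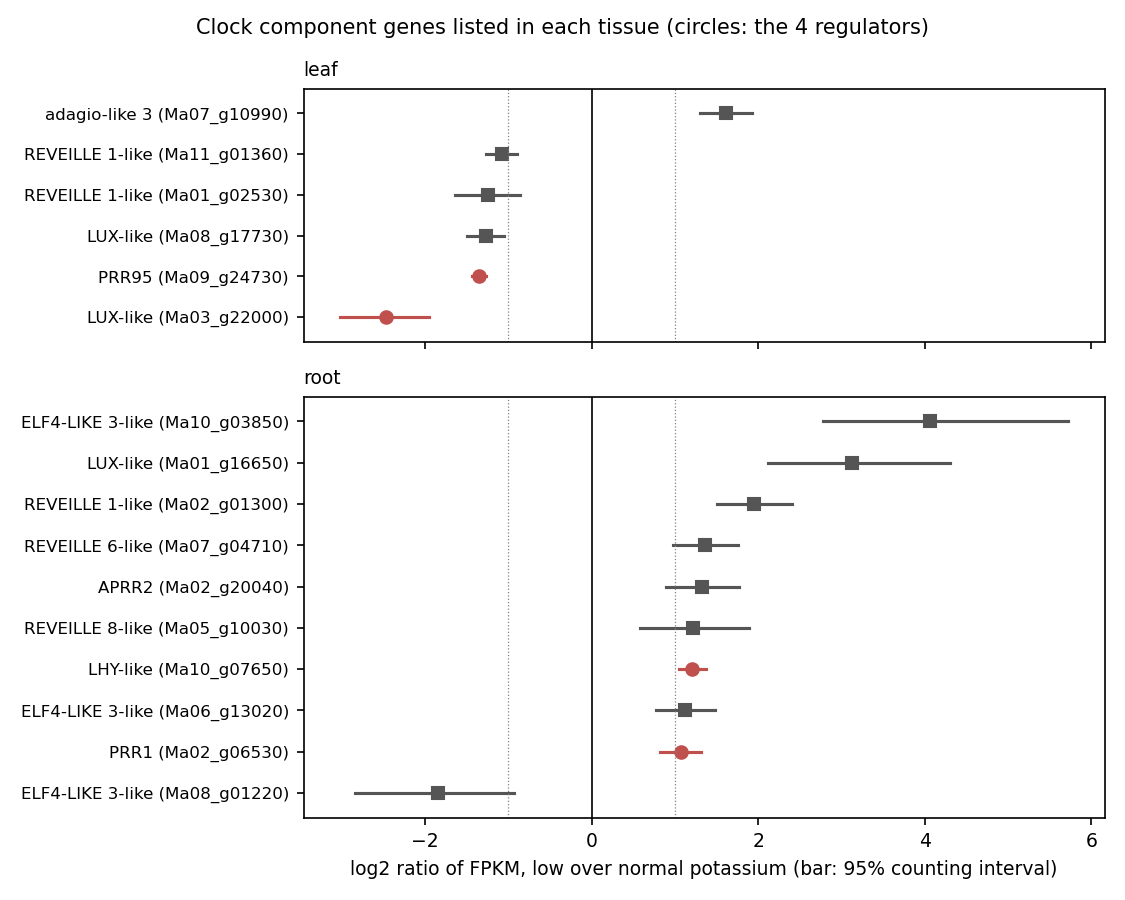
Log2 ratio of low over normal potassium, with 95% counting intervals, for the clock component genes listed in leaf (upper panel) and root (lower panel); circles are the 4 regulators, squares the other genes, and dotted lines mark the smallest ratio the tables hold. In leaf 5 of 6 lie left of 0, with LUX-like Ma03_g22000 farthest; in root 9 of 10 lie right of 0, with ELF4-LIKE 3-like Ma10_g03850 farthest.

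Genes for clock outputs such as flowering, and genes for light reception and light signalling, were counted by words in their names as well. Both kinds are called output genes for short, although light receptor and signalling genes need not carry the clock's timing. Cyclic Dof factors, which repress the flowering gene CONSTANS in Arabidopsis, were lower for all 3 listed in leaf, beside 32.6% of all listed leaf genes, and higher for all 5 listed in root, beside 40.4% of all listed root genes. In leaf, cyclic dof factor 2-like (Ma05_g07410) measured 21.9 FPKM in LKL and 50.5 FPKM in NKL, 2.30-fold lower (interval 1.88 to 2.84). In root, cyclic dof factor 1-like (Ma10_g18720) measured 166 FPKM in LKR and 62.0 FPKM in NKR, 2.68-fold higher (interval 2.35 to 3.06). Cyclic dof factor 4-like (Ma09_g06250) had the largest ratio of the group, at 60.5 FPKM in LKR and 5.63 FPKM in NKR, 10.8-fold higher (interval 5.78 to 22.2). Cyclic dof factor 3-like (Ma11_g23410) measured 49.1 FPKM in LKR and 21.7 FPKM in NKR, and cyclic dof factor 1-like Ma06_g12180 measured 35.5 FPKM in LKR and 14.0 FPKM in NKR, 2.26-fold and 2.53-fold higher.

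CONSTANS-like and B-box factors were mixed in leaf, with 2 of 4 higher beside 67.4% of all listed genes, and mostly higher in root, with 6 of 7 beside 40.4%. The HD1-like gene (Ma09_g23190), named after the rice counterpart of CONSTANS, measured 19.6 FPKM in LKR and 3.40 FPKM in NKR, 5.76-fold higher (interval 3.16 to 11.4). B-box zinc finger protein 20-like (Ma11_g03440) measured 50.2 FPKM in LKR and 10.8 FPKM in NKR, 4.66-fold higher (interval 3.19 to 6.98). Genes of the same name did not share a direction. Ma04_g05020 was 3.19-fold higher, whereas Ma11_g06360 measured 3.04 FPKM in LKR and 12.46 FPKM in NKR, 4.10-fold lower (interval 1.95 to 9.62). Cryptochrome-1 (Ma06_g03800), a blue-light receptor, measured 96.2 FPKM in LKR and 37.2 FPKM in NKR, 2.59-fold higher (interval 2.28 to 2.94). In leaf, SPA1-RELATED 4-like (Ma03_g32970), of a family that acts with COP1 to break down light-response factors, measured 94.8 FPKM in LKL and 199 FPKM in NKL, 2.10-fold lower (interval 1.95 to 2.27). A FLOWERING LOCUS T-like gene (Ma02_g07820), of the family of the flowering signal, had 1 fragment in LKR and 18 fragments in NKR, 17.0-fold lower with an interval of 2.69 to 710.1.

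Chlorophyll a-b binding protein genes, which capture light and cycle with the clock in Arabidopsis, were higher for all 4 listed in leaf and for both listed in root. Of all listed genes 67.4% were higher in leaf and 40.4% in root, so the leaf count of 4 is little removed from its table. The most abundant by mean level, Ma02_g11170, measured 229 FPKM in LKL and 58.9 FPKM in NKL, 3.89-fold higher (interval 3.31 to 4.57). Ma05_g08930 measured 152 FPKM in LKL and 34.6 FPKM in NKL, 4.40-fold higher, while Ma09_g02760 and Ma09_g06640 were 2.09-fold and 2.05-fold higher and turned to lower under one scaling of the counts, the median ratio of the listed genes. In leaf they went the opposite way to PRR95 and LUX-like, and in root the same way as LHY-like and PRR1. They are also among the green tissue markers, whose summed levels were higher in low potassium in both tissues. In all, 6 of 12 output and light signalling genes were lower in leaf, beside 32.6% of all listed leaf genes, and 15 of 17 were higher in root, beside 40.4% of all listed root genes. The root median log2 ratio was 1.42, against -1.20 over all listed root genes. In leaf the genes went both ways and the median of -0.02, against 1.32 over all listed leaf genes, describes none of them; it is -1.05 when 1 gene matched by KEGG is added.

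**Figure D4:**
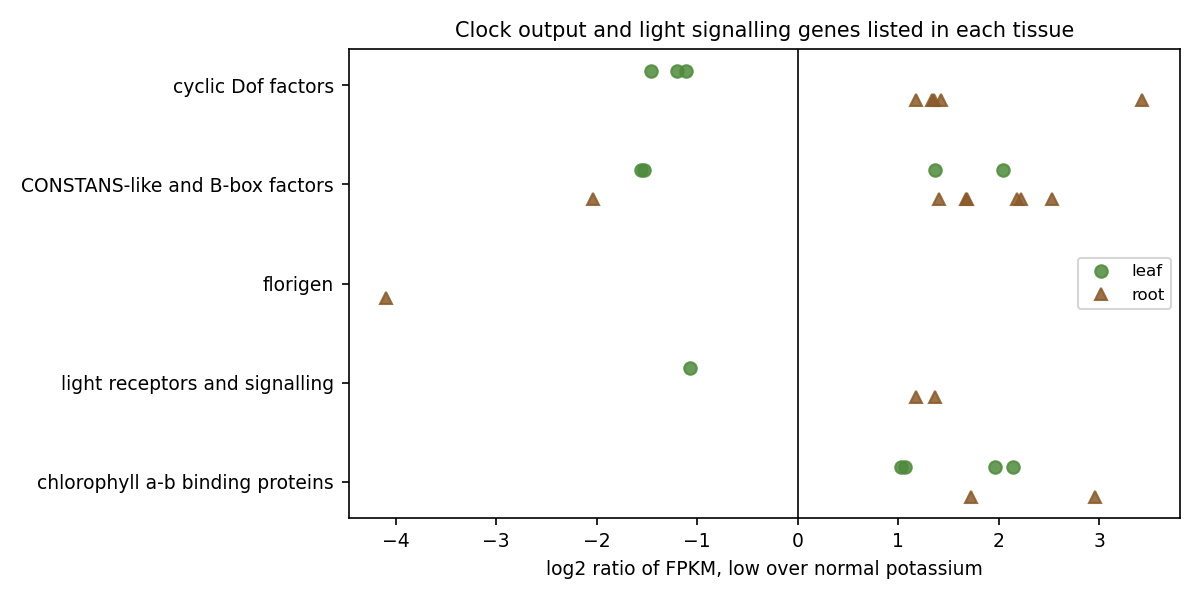
Log2 ratio of low over normal potassium for each listed clock output and light signalling gene, by group, with leaf as green circles and root as brown triangles. All 3 leaf cyclic Dof factors lie left of 0 and all 5 root ones right of 0, whereas chlorophyll a-b binding protein genes lie right of 0 in both tissues (2 leaf ones turn under median-ratio scaling).

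The genes most like each regulator were sought among listed genes with an informative protein name, leaving out uncharacterized and unnamed ones even where nearer, by distance between log2(FPKM + 0.1) values over the 2 libraries of its tissue, which reflects level and ratio together. Nearest to PRR95 among these were zinc transporter 2 (Ma08_g27050, distance 0.20), granule-bound starch synthase 1 (Ma04_g25840, distance 0.33) and a vacuolar-processing enzyme (Ma06_g37610, distance 0.86). The starch synthase makes amylose, and the processing enzyme is a vacuolar protease. Nearest to LUX-like among these were a tropinone reductase homolog (Ma09_g03430, distance 0.24), ammonium transporter 1 member 1-like (Ma08_g12490, distance 0.30) and PHR1-LIKE 1-like (Ma11_g06080, distance 0.39), of a family of phosphate starvation regulators.

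Of the named genes, those nearest to LHY-like were the ubiquitin ligase RING1-like (Ma04_g07750, distance 0.04), tubulin beta-7 (Ma06_g06200, distance 0.09) and a gp1-like cell wall protein (Ma09_g12720, distance 0.09). Those nearest to PRR1 were an aspartic protease (Ma03_g03890, distance 0.03), a zeta class glutathione S-transferase (Ma08_g29610, distance 0.05) and the ubiquitin ligase RGLG2-like (Ma02_g07420, distance 0.05). None of these 12 genes is a listed clock component. Clock components are only 6 of the 1183 leaf-table genes and 10 of the 4747 root-table genes, so their absence here is near that share. The distances are smaller in root, where more genes are listed, and 2 libraries give little to tell patterns apart.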

How the data were processed

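RNA was extracted with a CTAB method, DNase-treated, enriched on oligo(dT) beads and copied with random hexamers, per the labels' protocols. No step that marks the strand is described, so antisense reads cannot be told apart. The authors deposited, per the file headers, 1 table per tissue holding, beside annotation, gene length, expression and FPKM of both libraries, their log2 ratio, p-value and FDR. The expression columns deposited are read here as estimated counts: between 33.8% and 38.1% per library differ from a whole number by more than 0.001. FPKM values were scaled by the authors for length and library total. The deposited log2 ratio equals that of the FPKM columns. Not given in the sources used here were the test behind the authors' p-value and FDR, the aligner and the genome build, so no coordinates are printed. The largest FDR is 0.000995, and the tables hold listed genes only.

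From these files were computed, with Python 3.11.15, pandas 2.3.3, NumPy 2.4.6 and SciPy 1.17.1, the FPKM ratio and its 95% Clopper-Pearson interval, from the rounded low-potassium count as a binomial share of both counts. Depth is the slope of count over FPKM on gene length, fitted over genes above 100 fragments and 5 FPKM, dropping genes over 1% off the line. PCR copies are not independent molecules, so intervals cover counting error only. With 1 library per group no test was possible. Depth and interval code was tested on simulated data. Clock words were matched as whole words in the protein description. The members and word lists were chosen with earlier results of these data known. Named genes are the members, every listed clock component and the 3 nearest named genes per member. Also named are the 6 output genes per tissue of highest mean FPKM. HD1-like, FLOWERING LOCUS T-like, the B-box genes Ma11_g06360 and Ma04_g05020, and the genes matched by KEGG alone were chosen after their values were seen. The authors' table of potassium transport genes was not used.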

Additional observations from a re-analysis of the deposited data

Results flagged for a closer look

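The same contrast gave opposite directions in the tissues for clock component genes, whose median log2 ratio of low over normal potassium was -1.26 in leaf and 1.27 in root. Cyclic Dof factors likewise had medians of -1.20 in leaf and 1.35 in root. As no listed log2 ratio is under 1.0 in size, these signs repeat the counts of directions and are no further result. The difference between the tissues was not tested, as each tissue has 1 library per potassium supply. No gene of either group is listed in both tissues, as 410 of all 5520 genes are, so the medians compare different genes.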

How the results depend on the processing

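The log2 ratio of each of the 4 regulators stayed within its counting interval when computed from counts scaled by depth, from counts with no depth scaling or from FPKM + 1. Scaling counts by the median ratio of the listed genes, which the listing itself sets, subtracts a median log2 ratio of 1.29 from every leaf gene and of -1.28 from every root gene, and gave -2.67 for PRR95, -3.79 for LUX-like, 2.36 for LHY-like and 2.27 for PRR1. Genes lower in leaf or higher in root cannot turn under it, so it says nothing of how stable their direction is; 2 of the 6 higher leaf output genes did turn, both for chlorophyll a-b binding proteins (Ma09_g02760 and Ma09_g06640). Leaving out genes under a mean of 1 FPKM changed no count. Of genes at least 4-fold different, clock components were 1 lower and 0 higher in leaf and 2 higher and 0 lower in root. Output genes at that limit were 0 lower and 2 higher in leaf and 5 higher and 2 lower in root. The share of all listed genes at 4-fold was not computed here, so these few counts were not set against it. No conclusion about clock genes is drawn from them. Without the 4 regulators, the lower leaf components were 3. Words were also looked for in the first KEGG match, a setting chosen after seeing the data. In root, 12 of 14 components and 19 of 25 output genes were then higher, beside 40.4% of all listed root genes. The lower ones were 2 and 6. The higher share of root output genes fell from 88.2% to 76%. No paired analysis was possible because each group has 1 library. Depth limits LUX-like most, with 36 fragments in low-potassium leaf.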

Other observations

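Some root genes were matched to clock and light factors by KEGG alone. Of 4 TCP factors placed with CHE, a partner of the Arabidopsis clock, PCF2-like Ma05_g03160 measured 49.3 FPKM in LKR and 21.2 FPKM in NKR, 2.33-fold higher, and PCF2-like Ma11_g15890 and TCP20-like Ma06_g01380 were 2.47-fold and 3.01-fold higher. TCP15-like Ma06_g04400 measured 20.3 FPKM in LKR and 46.7 FPKM in NKR, 2.30-fold lower. A salt tolerance protein-like gene (Ma09_g20720), which KEGG places with CONSTANS, measured 166 FPKM in LKR and 53.9 FPKM in NKR, 3.08-fold higher (interval 2.59 to 3.67). RF2a-like Ma06_g28620, which KEGG places with the light factor HY5, measured 5.77 FPKM in LKR and 59.8 FPKM in NKR, 10.4-fold lower (interval 6.55 to 17.3). RF2b-like Ma07_g26800, Ma09_g06370 and Ma03_g03360, also placed with HY5, were lower too. Ma03_g04500, Ma05_g19380 and Ma09_g17480, placed with phytochrome-interacting factor 3, were 2.36-fold, 2.41-fold and 2.48-fold higher. With KEGG matches added, 5 of 9 root light receptor and signalling genes were higher, beside 40.4% of all listed root genes.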
